A study of Mus musculus with 2 samples.

Results

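The translation initiation and elongation factors of mouse induced macrophages are described here. They were taken as every gene of the count table whose symbol begins with Eif or Eef, without Eif2s3x and Eif2s3y, which gave 67 of 20034 genes. They were read over 6751 of 6837 barcodes, those with 500 or more genes detected and no more than 15% of counts from mitochondrial genes. The series profiled single cells of wild type genotype that its title describes as macrophages induced from fibroblasts by c-Myc, a transcription factor of the basic helix-loop-helix leucine zipper family. The cells were detached with EDTA and processed on a DNBelab C4 droplet system. According to the labels, a cDNA and an oligo library were made from these cells, and the barcode names do not say which library a barcode belongs to. The matrix was therefore read as 1 sample with no replicate, and barcodes shared between the libraries could not be counted. No untreated or uninduced cells are among the 2 labelled samples, and the labels give no clone, animal or day.

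Protein synthesis starts when eIF2 brings the initiator tRNA to the small ribosomal subunit, with eIF3 as the scaffold of the complex. The eIF4 group recruits this complex to the cap of the messenger RNA. The complex scans to a start codon, the subunits join, and elongation factors then deliver aminoacyl-tRNA and move the ribosome along the message. Phosphorylation of eIF2 lowers general initiation while favouring a few messages such as that of the transcription factor ATF4, and binding proteins of eIF4E couple cap recognition to growth signals. Macrophages use these controls in their responses to interferon and to nutrient shortage, and genes of protein synthesis are a well-known class of c-Myc targets.

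The kept cells held 160363508 counts, with a median of 17178 per cell and a range of 1001 to 192369. Of the macrophage markers, 20 of 20 were at 10 counts per 1000000 counts (CPM) or more, led by Tyrobp, a signalling adaptor of myeloid cells, at 5700 CPM. Of 15 fibroblast markers, 6 had a row and 0 reached 10 CPM. The highest was Fstl1, a secreted glycoprotein, at 1.70 CPM. No lymphocyte, endothelial, epithelial or erythroid marker on the lists reached 10 CPM, whereas 4 of 9 precursor markers did, led by the granule protease gene Prtn3 at 96.3 CPM. Levels are sums over cells, and intervals in brackets are exact 95% Poisson intervals that cover counting error only. Fewer expressing cells and less RNA per cell cannot be told apart in such sums.

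Because c-Myc and its relatives bind the E-box CACGTG, the RefSeq promoter windows (build GRCm38.p6, 250 bases before to 50 after an annotated start) were read for it. CACGTG is the same on both strands. A window was at hand for 52 of the 67 genes, and 13 of these (25%) held the motif in at least 1 window, against 8.89% of 14011 other genes with a row. Among 5327 other genes at 10 CPM or more the share was 10.6%. A match is a string of letters and not a measured binding site. The sequences shown carry the motif in capitals, each with 12 bases on either side, read 5′ to 3′ on the gene's strand. They were chosen because their proteins form the cap-binding complex or act in elongation.
Eif4e, chr3:138527028-138527057, plus strand: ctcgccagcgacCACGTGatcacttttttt
Eif4g1, chr16:20672661-20672690, plus strand: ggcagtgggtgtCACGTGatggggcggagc
Eif4a1, chr11:69672595-69672624, minus strand: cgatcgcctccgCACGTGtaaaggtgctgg
Eif5a, chr11:69920791-69920820, minus strand: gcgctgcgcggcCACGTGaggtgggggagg
Eef2, chr10:81176576-81176605, plus strand: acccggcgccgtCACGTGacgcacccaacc
Eef2k, chr7:120842788-120842817, plus strand: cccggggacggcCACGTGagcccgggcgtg
Relative to the annotated start of the window shown as 0, the motif began at -31 in Eef2k, -43 in Eef2, -54 in Eif4g1, -178 in Eif5a, -189 in Eif4a1 and -228 in Eif4e, whose window held 2 copies. Several of these genes have more than 1 annotated start. Of 6 windows of Eif5a, 2 others hold a further copy, at -74 and -185 of their starts, and of 3 windows of Eef2k only the 1 shown holds the motif. Another window of Eif4e, chr3:138525941-138526240, lies at the upstream end of the gene and holds no motif. The motif printed for Eif4e begins at 138527040, inside the gene as annotated from 138526179. That printed for Eif4g1 begins at 20672673, inside the gene as annotated from 20668313. The motif printed for Eif5a, at 69920803 to 69920808, also lies inside its gene, annotated from 69916714 to 69921958. Those printed for Eif4a1, Eef2 and Eef2k lie outside the gene as annotated. The other genes with the motif were Eif3f, Eif3k, Eif4h, Eif1b, Eif5a2, Eef1akmt4 and Eef1aknmt.

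Many messages of ribosomal proteins and elongation factors begin with a run of pyrimidines, the TOP motif, through which mTOR signalling and the protein Larp1 control their translation. The longest run of C and T that held the annotated start, or began within 10 bases of it, reached 8 bases in 11.9% of the 67 windows, from 7 genes, and in 9.55% of the windows of other genes. The median run was 4 bases in both sets. These windows show 20 bases on each side of the annotated start, with the run in capitals, for the most abundant of the genes and for a pair of eIF3 subunits.
Eef1a1, chr9:78481705-78481744, minus strand: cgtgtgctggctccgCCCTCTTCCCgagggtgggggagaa
Eif3f, chr7:108934395-108934434, plus strand: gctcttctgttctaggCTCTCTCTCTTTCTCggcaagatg
Eif3l, chr15:79075203-79075242, plus strand: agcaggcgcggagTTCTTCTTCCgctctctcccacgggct
Of 9 factors on a list of well-known TOP messages, 5 had a window and 2, Eef1a1 and Eif3f, showed such a run. The genes with such a run that are not shown were Eif2b5, Eif2b2, Eif2ak4 and Eif4enif1. None of them, nor Eif3l, is on that list, and the run of Eif2b5 was the longest at 21 bases. The runs shown begin before the annotated start and reach past it. Where the messages begin in these cells was not measured. The runs are strings of letters and are not shown to be the TOP motifs of these messages, that of Eef1a1 included.

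Together the 67 genes took 1.96% of all counts (3135234 counts). Of them, 61 (91.0%) were at 10 CPM or more, as were 33.2% of all rows, and their median level was 128 CPM against 2.03 CPM over all rows. The counts were uneven. Eef1a1 alone held 23.4% of them, the 5 highest genes held 51.8% and the 10 highest 67.1%. By comparison, 89 ribosomal protein genes took 32.3% of all counts. Levels of different genes are also given per kilobase (kb) of the longest coding transcript in GENCODE M21, because the labels do not say whether counts arise along the transcript or only at its end. The order of the genes was similar on both scales, with a Spearman correlation of 0.936 across the 66 genes that have a length, which are not independent replicates. A further coding gene of the family in M21, Eif4e1b, has no row.

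**Figure D1:**
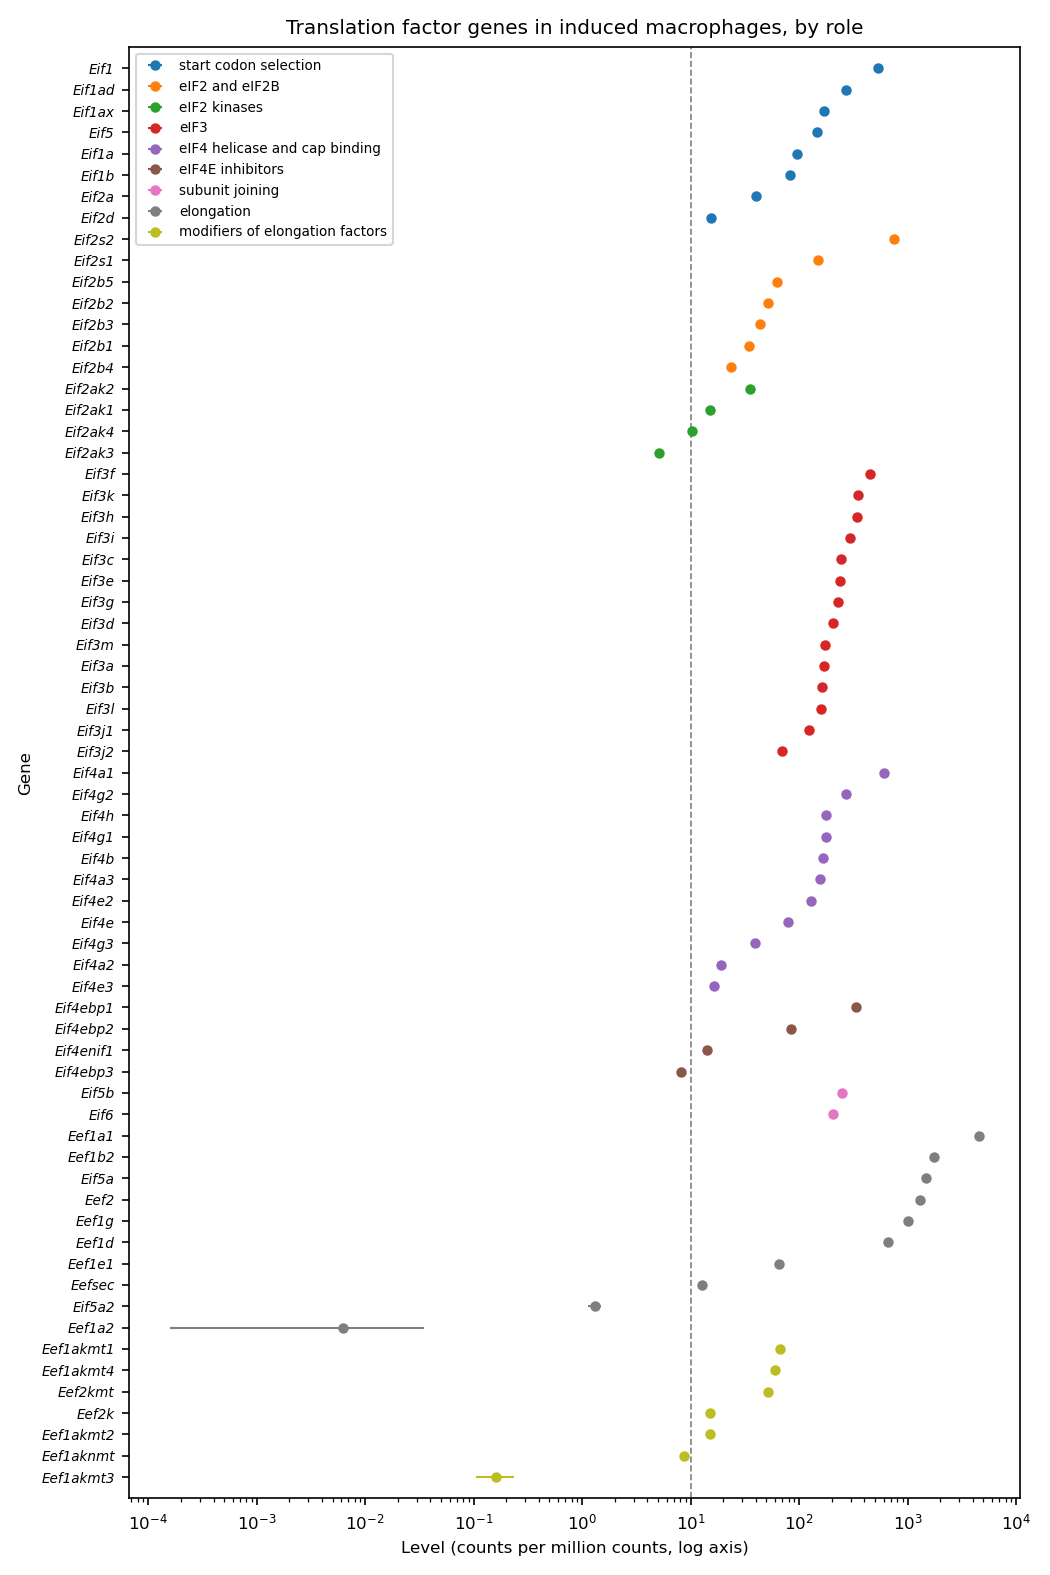
Levels of the translation factor genes over all kept cells, grouped by role, in CPM on a log axis with 95% Poisson intervals for counting error. Eef1a1 stands highest at 4577 CPM and Eef1a2 lowest with 1 count.

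Elongation factors held 55.6% of the factor counts, 10874 CPM in sum. Eef1a1, which brings aminoacyl-tRNA to the ribosome, had 4577 CPM (4567 to 4588), or 2552 CPM per kb. The 3 subunits of its nucleotide exchange factor followed with 1764 CPM for Eef1b2, 1017 CPM for Eef1g and 665 CPM for Eef1d. Eif5a, whose hypusine-bearing protein relieves stalled ribosomes, had 1481 CPM, and Eef2, which drives translocation, had 1290 CPM. Eef1e1, a scaffold protein of the multi-tRNA synthetase complex, had 65.03 CPM. Eefsec, the selenocysteine elongation factor, had 12.8 CPM.

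The paralogs of the elongation factors were far apart. Eef1a2, a form known from muscle and neurons, had 1 count in all cells (0.00624 CPM). Eif5a2 had 1.32 CPM (1.14 to 1.51), against 1481 CPM for Eif5a. Per kb the pair stood at 0.262 for Eif5a2 and 1030 for Eif5a.

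Of 7 genes whose products modify elongation factors, 5 were at 10 CPM or more. The eEF1A lysine methyltransferase genes Eef1akmt1, Eef1akmt4 and Eef1akmt2 had 66.5, 60.1 and 15.2 CPM, and Eef1akmt3 had 0.162 CPM. Eef1aknmt, which methylates the amino terminus of eEF1A, had 8.74 CPM. Eef2kmt, a methyltransferase of eEF2, had 51.3 CPM. Eef2k, the kinase that inactivates eEF2, had 15.2 CPM (14.6 to 15.8). Modifier counts were thus a small part of the whole, 1.11% of the factor counts.

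All 14 subunit genes of eIF3, the scaffold of the initiation complex, were at 10 CPM or more, and they summed to 3204 CPM (16.4% of the factor counts). They lay between 69.1 CPM for Eif3j2 and 450 CPM for Eif3f. Eif3f, Eif3k and Eif3h were the highest in CPM, at 450, 348 and 339. Per kb the leading subunits were Eif3k at 383, Eif3h at 262 and Eif3i at 260. Eif3i, Eif3e, Eif3g, Eif3d, Eif3m and Eif3l had 292, 240.3, 229.9, 204, 173 and 160 CPM. Eif3a, Eif3b and Eif3c, which form the core of the complex, had 170, 162 and 242 CPM. The paralogs of the loosely bound subunit j changed order with the scale. Eif3j1 had 124 CPM and Eif3j2 69.1 CPM, while per kb they had 23.0 and 29.1.

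The eIF4 group summed to 1834 CPM. Eif4a1, the helicase that unwinds the leader, had 607 CPM, against 19.2 CPM for its paralog Eif4a2, and 342 against 7.10 per kb. Eif4a3, a core protein of the exon junction complex, had 155 CPM. The helicase cofactors Eif4h and Eif4b had 179 and 166 CPM. Eif4e, which binds the cap, had 79.1 CPM (77.7 to 80.5). Eif4e2, a cap-binding protein that can repress messages, was higher at 128 CPM, and also per kb at 36.9 against 15.8. Eif4e3 was the lowest of this group at 16.5 CPM. Of the scaffolds, Eif4g2, a form that does not bind eIF4E, had 268 CPM, Eif4g1 177 CPM and Eif4g3 39.6 CPM. Per kb Eif4g2 and Eif4g1 were close, at 33.5 and 31.5.

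Among the genes whose proteins restrain eIF4E, Eif4ebp1 had 333 CPM (330 to 336), Eif4ebp2 had 84.8 CPM and Eif4ebp3 had 8.23 CPM. The level of Eif4ebp1 was 3.93 times that of Eif4ebp2 in CPM and 11.4 times per kb. It was also above the level of Eif4e on both scales, with 167 against 15.8 CPM per kb. Eif4enif1, which binds eIF4E in the nucleus and in processing bodies, had 14.2 CPM.

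For start codon selection, Eif1, a guardian of start codon fidelity, had 533 CPM and its paralog Eif1b 82.1 CPM. Eif1ax and Eif1a, which encode eIF1A and aid scanning, had 171 and 96.1 CPM, and per kb they were near each other at 33.1 and 33.5. Eif1ad, named for its eIF1A-like domain, had 271 CPM. Eif5, which triggers GTP hydrolysis on eIF2, had 147 CPM. Eif2a and Eif2d, which can deliver initiator tRNA outside the eIF2 route, had 40.2 and 15.3 CPM. For subunit joining, Eif5b, the GTPase of that step, had 249 CPM, and Eif6, which keeps free large subunits apart, had 203 CPM.

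Of eIF2 itself, Eif2s2 (the beta subunit) had 743 CPM and Eif2s1 (the alpha subunit, which the eIF2 kinases phosphorylate) had 149 CPM. That ratio was 4.98 in CPM and 6.66 per kb. The 5 subunits of eIF2B, the factor that reloads eIF2 with GTP, lay between 23.7 CPM for Eif2b4 and 62.6 CPM for Eif2b5, its catalytic subunit. Eif2b2, Eif2b3 and Eif2b1 had 51.5, 43.4 and 34.6 CPM. The 4 eIF2 kinases were all low, between 1.13 and 8.22 CPM per kb. Eif2ak2 (PKR, which senses double-stranded RNA) had 35.5 CPM, Eif2ak1 (HRI, heme) 15.2 CPM, Eif2ak4 (GCN2, uncharged tRNA) 10.3 CPM and Eif2ak3 (PERK, misfolded protein) 5.09 CPM. The labels do not say whether counting used strand, and 24 of the factor genes overlap another gene with a row. Reads of Eif2s2 and the overlapping gene a, of Eif1ad and Banf1, of Eif3j1 and Spg11, and of Eef1d and Naprt could therefore have been counted for either. Near-identical copies such as Eif3j1 and Eif3j2, Eif1a and Eif1ax, and processed pseudogenes may also share reads, and how these were assigned is not stated.

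To compare cells within the sample, each cell of at least 10000 counts was thinned at random to 10000 counts, which kept 4312 cells and left out 2439. Cells were then grouped by summed counts of marker genes that hold no translation factor. The groups are ranges of a score and not cell types, all come from the same cells, and with 1 sample no difference was tested. A gene is called higher or lower where its ratio of CPM, with 1 CPM added to both, passed 1.2-fold. Of the 67 factors, 60 reached 10 CPM over the thinned cells and entered these comparisons. The 7 below it were Eef1a2, Eef1akmt3, Eif5a2, Eif2ak3, Eif4ebp3, Eef1aknmt and Eif2ak4.

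**Figure D2:**
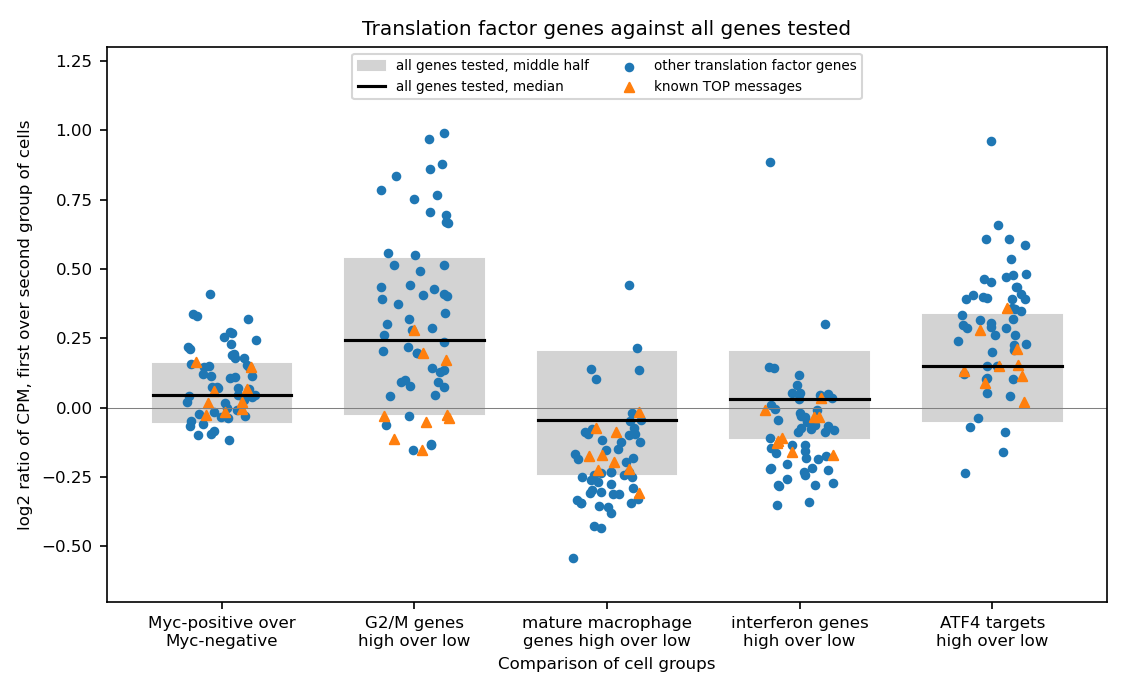
Log2 ratio of CPM of each of the 60 factors between groups of cells in the 5 comparisons, with known TOP messages as triangles and the median and interquartile band of all genes tested in black and grey. Factors lie mostly below 0 in cells high in mature macrophage genes and mostly above 0 in cells high in ATF4 target genes.

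The first comparison asked how factors differed with Myc. Myc itself had 40.2 CPM, and the table does not separate an introduced copy from the cell's own gene. The 1233 cells with at least 1 Myc count, 912 of which had exactly 1, were set against 3079 cells with none. At that level a cell that carries Myc message can show no count, so sampling decides in part which group a cell enters. Small ratios in this comparison therefore say little about how factors go with Myc level. The factors took 1.98% of counts in Myc-positive cells and 1.92% in Myc-negative cells. Of the 60 factors, 6 were higher and 0 lower, against 9.85% of 6468 genes tested higher and 1.79% lower. Their share of higher genes, near the background, is no result about the factors, and with another random thinning 2 were higher. The median log2 ratio was 0.07 for the factors and 0.05 for all genes tested.

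A pair of eIF4 scaffolds was among the largest ratios of that comparison. Eif4g3 had 43.2 CPM (39.6 to 47.1) in Myc-positive cells and 32.3 CPM (30.3 to 34.3) in Myc-negative cells, a log2 ratio of 0.41. Eif4g1 had 198 CPM in Myc-positive cells and 164 CPM in Myc-negative cells. In Myc-positive against Myc-negative cells, Eif4e3 had 19.1 against 14.9 CPM, Eif3a 179 against 142 CPM and Eef2k 17.1 against 13.5 CPM. Eefsec had 13.5 CPM (11.6 to 15.8) in Myc-positive cells and 11.0 CPM (9.90 to 12.3) in Myc-negative cells, intervals that overlap. Its log2 ratio of 0.27 turned to -0.13 with another random thinning and to -0.11 at 5000 counts per cell. Of the abundant factors, Eef1a1 and Eif5a were nearly equal and Eef2 differed more. In Myc-positive against Myc-negative cells, Eef1a1 had 4616 against 4553 CPM, Eif5a 1495 against 1479 CPM and Eef2 1412 against 1275 CPM. Of the regulated steps, Eif4e had 76.6 CPM in Myc-positive cells against 70.8 CPM in Myc-negative cells, Eif2ak2 33.6 against 32.5 CPM and Eif4ebp1 316 against 339 CPM.

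The 11 tested factors whose promoter windows hold CACGTG had a median log2 ratio of 0.02 between Myc-positive and Myc-negative cells, and the 36 with a window but no motif had 0.11. The sampling of Myc counts limits these medians as well. Of the E-box genes printed above, Eef2k had the highest ratio, 0.32. Ribosomal protein genes had a median of -0.05 and 10 nucleolar genes, which serve ribosome assembly, had 0.29. By length of the gene on the chromosome, 20.3% of 1515 genes of 50 kb or more were higher, against 6.66% of 4922 shorter genes. Of the factors, 3 of 7 of such length were higher (Eif4g3, Eefsec and Eef2k), and 3 of 53 shorter ones. The part of length in these ratios was not tested. Malat1, a nuclear long noncoding RNA, had 204 CPM in Myc-positive cells and 137 CPM in Myc-negative cells. Among cells with at most 3 Malat1 counts, 7 of 60 factors were higher and 0 lower, against 8.11% of genes higher and 1.83% lower.

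The second comparison was with the cell cycle, by 20 genes of G2 and mitosis. The 1126 cells with at least 18 counts of these genes are called G2/M-high and the 1255 cells with at most 4 G2/M-low, with 76 and 238 cells at these limits. The factors took 1.99% of counts in G2/M-high cells and 1.84% in G2/M-low cells. Of the 60 factors, 31 were higher and 0 lower, but 48.2% of 6449 genes tested were higher and 8.4% lower. The median log2 ratio was 0.28 for the factors and 0.24 for all genes, so the median of the factors lay close to that of all genes. Taken relative to that shift of all genes, 16 factors were higher and 11 lower, against 26.9% of genes higher and 25.5% lower.

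The 9 known TOP messages had a median log2 ratio of -0.03 and the other 51 factors 0.34. The 86 ribosomal protein genes had -0.14. By role, medians were 0.04 for elongation, 0.13 for subunit joining, 0.17 for eIF3, 0.20 for modifiers of elongation factors and 0.29 for eIF2 kinases. They were 0.32 for eIF2 and eIF2B, 0.39 for the eIF4 group, 0.45 for start codon selection and 0.51 for eIF4E inhibitors. Some roles held few tested genes, with 2 each for subunit joining and eIF2 kinases and 3 for eIF4E inhibitors. Eif4e had 99.0 CPM (93.3 to 105) in G2/M-high cells and 53.5 CPM (49.5 to 57.7) in G2/M-low cells, a log2 ratio of 0.88. Abundant elongation factors were nearly equal: in G2/M-high against G2/M-low cells, Eef1a1 had 4590 against 4683 CPM, Eef2 1292 against 1339 CPM and Eif5a 1473 against 1376 CPM. Eif4ebp1 had 381 CPM in G2/M-high cells and 260.0 CPM in G2/M-low cells, and Eif2ak2 38.3 against 34.7 CPM.

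The largest ratios were those of Eefsec, with 16.3 CPM in G2/M-high cells and 7.73 CPM in G2/M-low cells, and of Eif4a2, with 25.4 against 12.5 CPM. Eef2k had 19.2 CPM in G2/M-high cells and 10.1 CPM in G2/M-low cells, Eif4g3 50.5 against 27.9 CPM, and Eif3a 201 against 116 CPM. Among eIF3 subunits Eif3a stood at a log2 ratio of 0.78 and Eif3f at -0.15, the lowest of the 60. The other eIF3 subunits lay between these values.

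Length of the gene on the chromosome and Malat1 both moved with this comparison. Over all genes the median log2 ratio was -0.03 for the 823 genes under 5 kb and 0.50 for the 638 genes of 100 kb or more. The 7 factors of 50 kb or more had a median of 0.76 and the 53 shorter ones 0.26, against 0.45 and 0.18 for all genes of these lengths. Of the 7, 5 were higher, against 68.5% of all genes of 50 kb or more. Eefsec spans 189 kb and Eif4g3 215 kb, but Eif4a2 only 6.69 kb. Eif3h, of 79.0 kb, had a log2 ratio of -0.04 and Eif5b, of 57.6 kb, 0.22. Malat1 had 511 CPM in G2/M-high cells and 16.2 CPM in G2/M-low cells. Among cells with at most 3 Malat1 counts, 29 of 60 factors were higher, against 39.9% of genes, and Eif4e had 83.0 CPM in G2/M-high cells and 52.2 CPM in G2/M-low cells.

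**Figure D3:**
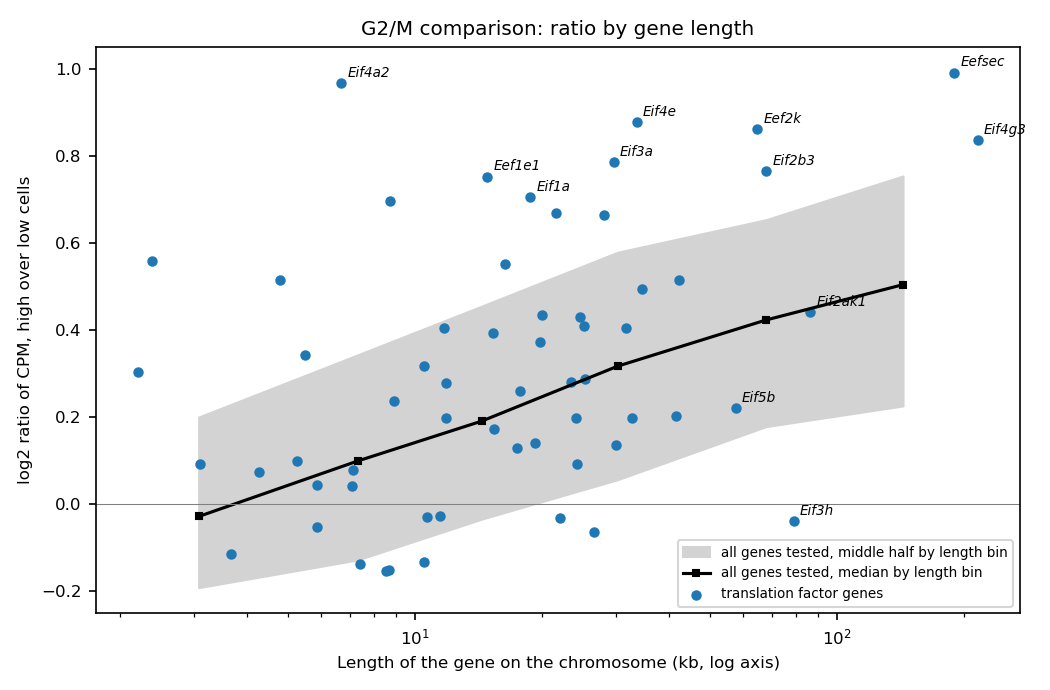
Log2 ratio of CPM, G2/M-high over G2/M-low cells, against gene length in kb on a log axis, for each factor (points) and for all genes tested in 6 length bins (median and interquartile range). The median of all genes climbs from -0.03 under 5 kb to 0.50 at 100 kb or more. The long factors Eefsec and Eif4g3 lie above it, whereas Eif3h and Eif5b, of 79.0 and 57.6 kb, lie below it.

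The third comparison set 1104 cells with at least 36 counts of 8 mature macrophage genes, such as the complement genes C1qa to C1qc and the lipid carrier Apoe, against 1109 cells with at most 9. At these limits lay 44 and 127 cells. Apoe had 1708 of the 2795 CPM of this list, so the score rested largely on it. Factors took 1.80% (1.796 to 1.812) of counts in high cells and 2.02% (2.009 to 2.026) in low cells. Of the 60 factors, 1 was higher and 20 were lower, against 20.6% of 6461 genes higher and 22.7% lower. The median log2 ratio was -0.22 for the factors, -0.13 for ribosomal protein genes and -0.04 for all genes. Scaled to counts outside ribosomal protein, mitochondrial and rRNA-locus transcripts, 33 of 63 factors were lower, against 29.7% of genes.

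All 14 eIF3 genes had ratios below 0 in this comparison, as most genes did, and 7 were lower past 1.2-fold. Eif3b had 139 CPM (132 to 147) in cells high in mature macrophage genes and 187 CPM (180 to 196) in low cells. In high against low cells, Eif3j2 had 50.4 against 68.3 CPM, Eif3l 134 against 174 CPM and Eif3k 312 against 400 CPM. Eif1ad had the lowest ratio, -0.54, with 211 CPM in high cells and 308 CPM in low cells. Eif5a was lower as well, with 1270 CPM in high cells and 1610 CPM in low cells. Eef1a1 differed least among the abundant factors, with 4542 CPM in high cells and 4597 CPM in low cells, a log2 ratio of -0.02. Eef2 had 1210 CPM in high cells and 1366 CPM in low cells, Eif4ebp1 300.2 against 352 CPM, and Eif4e 71.4 against 72.4 CPM.

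Of the 60 factors, 5 had a ratio above 0, against 2858 of 6461 genes tested, and the 1 past 1.2-fold was Eif2ak2. It had 38.9 CPM (35.3 to 42.8) in cells high in mature macrophage genes and 28.4 CPM (25.3 to 31.7) in low cells, a log2 ratio of 0.44. The G2/M genes summed to 1051 CPM in high cells and 1320 CPM in low cells, and Malat1 was 161 CPM in high cells and 184 CPM in low cells. The median mitochondrial share was 0.763% in high cells and 0.528% in low cells, and its part in these ratios was not tested. Among the 1255 cells low in G2/M genes, 30 of 58 factors were lower, against 30.5% of genes, so the count was larger there. Nucleolar genes had a median log2 ratio of -0.52 in the comparison of all thinned cells.

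The fourth comparison used 14 interferon response genes with a row, led by the ubiquitin-like modifier Isg15, in 1197 cells with at least 2 counts and 2123 cells with none. At the lower edge of the high group, 414 cells had exactly 2 counts. Factors took 1.86% of counts in high cells and 1.96% in low cells. Of the 60, 2 were higher and 6 lower, against 18.5% of 6463 genes higher and 7.52% lower. The median log2 ratio was -0.08 for the factors and 0.03 for all genes, with 14 of 60 factors and 3587 of 6463 genes above 0. Scaled to counts outside ribosomal protein, mitochondrial and rRNA-locus transcripts, 1 of 63 factors was higher and 15 were lower, against 15.7% of genes higher and 13.2% lower.

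Eif2ak2, an interferon-inducible gene, stood apart from the rest. It had 48.7 CPM (44.8 to 52.8) in interferon-high cells and 25.9 CPM (23.8 to 28.2) in cells with no count of the list, a log2 ratio of 0.89. The next highest ratio was that of Eif5b at 0.30, with 253 CPM in interferon-high cells and 205 CPM in cells with none. In cells low in G2/M genes Eif2ak2 had 59.1 CPM in interferon-high cells and 24.7 CPM in cells with none, and in cells with at most 3 Malat1 counts these values were 46.7 against 24.2 CPM. Of the other eIF2 kinases tested, Eif2ak1 had 16.1 CPM in interferon-high cells and 15.8 CPM in cells with none. Below the level limit, Eif2ak4 had 7.77 CPM in interferon-high cells and 10.1 CPM in cells with none, and Eif2ak3 4.51 against 5.09 CPM.

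The lowest ratios in the interferon comparison were modest. Eif1ad had 227 CPM in interferon-high cells and 290.0 CPM in cells with none, a log2 ratio of -0.35, and Eif3b had 143 against 181 CPM. Eif3g had 204 CPM in interferon-high cells and 248 CPM in cells with none, and Eif4ebp2 73.4 against 89.3 CPM. For elongation, Eef1a1 had 4622 CPM in interferon-high cells and 4508 CPM in cells with none, Eef2 1229 against 1341 CPM, and Eif5a 1331 against 1563 CPM. For cap binding, Eif4e had 74.9 CPM in interferon-high cells and 72.4 CPM in cells with none, and Eif4ebp1 311 against 342 CPM. How many factors were lower depended on the setting, with counts between 0 and 22. The share of all genes at each of these settings is not given, so that range is no result about the factors. Malat1 had 216 CPM in interferon-high cells and 126 CPM in cells with none. Among cells with at most 3 Malat1 counts, 2 of 60 factors were higher and 8 lower, against 18.2% of genes higher and 9.56% lower. The 20 macrophage markers summed to 17116 CPM in interferon-high cells and 13923 CPM in cells with none. The median mitochondrial share was 0.768% in interferon-high cells and 0.572% in cells with none. The part of both in these ratios was not tested.

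The fifth comparison used 15 targets of ATF4, the transcription factor whose message is favoured when eIF2 is phosphorylated. The list was led in level by Phgdh, of serine synthesis, at 348 CPM, and by other amino acid and folate genes. In 1160 cells with at least 18 counts of the list the factors took 2.07% (2.062 to 2.078) of counts, and in 1141 cells with at most 10 they took 1.77% (1.765 to 1.781). At these limits lay 226 and 246 cells. Of the 60 factors, 33 were higher and 0 lower, against 34.6% of 6457 genes higher and 9.15% lower. The median log2 ratio was 0.29 for the factors, -0.05 for ribosomal protein genes and 0.15 for all genes. Relative to that shift of all genes, 13 factors were higher and 2 lower, against 17.2% of genes higher and 18.4% lower.

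The subunits of eIF2 and eIF2B had the highest median of the 9 roles, 0.40, with 7 of 7 above 0 and 6 past 1.2-fold. The ranking depends on the measure. By log2 ratio of summed CPM the eIF4E inhibitors, with 3 genes tested, were highest at 0.54, against 0.44 for eIF2 and eIF2B. Of all genes, 4521 of 6457 were above 0. Eif2s2 had 781 CPM (765 to 797) in ATF4-target-high cells and 559 CPM (545 to 572) in low cells. In ATF4-target-high against low cells, Eif2b3 had 49.1 against 32.4 CPM, Eif2b5 70.2 against 52.9 CPM and Eif2b4 27.1 against 20.2 CPM. Of the kinases that act on eIF2, 2 were abundant enough to compare and neither passed 1.2-fold. Eif2ak2 had 30.6 CPM in high cells and 36.2 CPM in low cells, and Eif2ak1 15.4 against 15.9 CPM. Below the level limit, Eif2ak4 had 10.52 CPM in high cells and 9.11 CPM in low cells, and Eif2ak3 4.83 against 5.17 CPM. All 14 eIF3 genes had ratios above 0, of which 8 passed 1.2-fold. They ran between 0.09 for Eif3f and 0.61 for Eif3j2, with 71.8 CPM for Eif3j2 in high cells and 46.8 CPM in low cells.

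Eef2k had the largest ratio of the 60. It had 19.2 CPM (16.8 to 21.9) in ATF4-target-high cells and 9.38 CPM (7.69 to 11.3) in low cells, a log2 ratio of 0.96. In this comparison the 11 tested factors with CACGTG in a window had a median of 0.33, and the 36 with a window but no motif 0.29. Eif4ebp1, a known ATF4 target that was not on the list, had 394 CPM (382 to 405) in high cells and 249 CPM (240 to 258) in low cells, a log2 ratio of 0.66. Eif4ebp2 had 88.9 CPM in high cells and 76.9 CPM in low cells, a log2 ratio of 0.21, and Eif4ebp3, below the level limit, had 9.31 against 7.10 CPM. In high against low cells, Eif1ad had 310 against 203 CPM and Eefsec 13.8 against 9.20 CPM. Among abundant factors Eif5a had 1609 CPM in high cells and 1278 CPM in low cells, Eef2 1398 against 1259 CPM, and Eef1a1 4814 against 4448 CPM. Eif4e had 80.1 CPM in high cells and 60.8 CPM in low cells.

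G2/M genes also differed in this comparison, at 1492 CPM in ATF4-target-high cells and 839 CPM in low cells, as did the 20 macrophage markers, at 13429 CPM in high cells and 17447 CPM in low cells. The median mitochondrial share was 0.536% in high cells and 0.759% in low cells. The rRNA-locus transcript Gm42418 took 5.19% of counts in high cells and 6.56% in low cells. The part of both shares in these ratios was not tested. In the 1255 cells low in G2/M genes, 38 of 58 factors were higher, against 34.2% of genes, and Eif4ebp1 had 350 CPM in ATF4-target-high cells and 180 CPM in low cells. Nucleolar genes had a median log2 ratio of 0.53 in the comparison of all thinned cells.

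**Figure D4:**
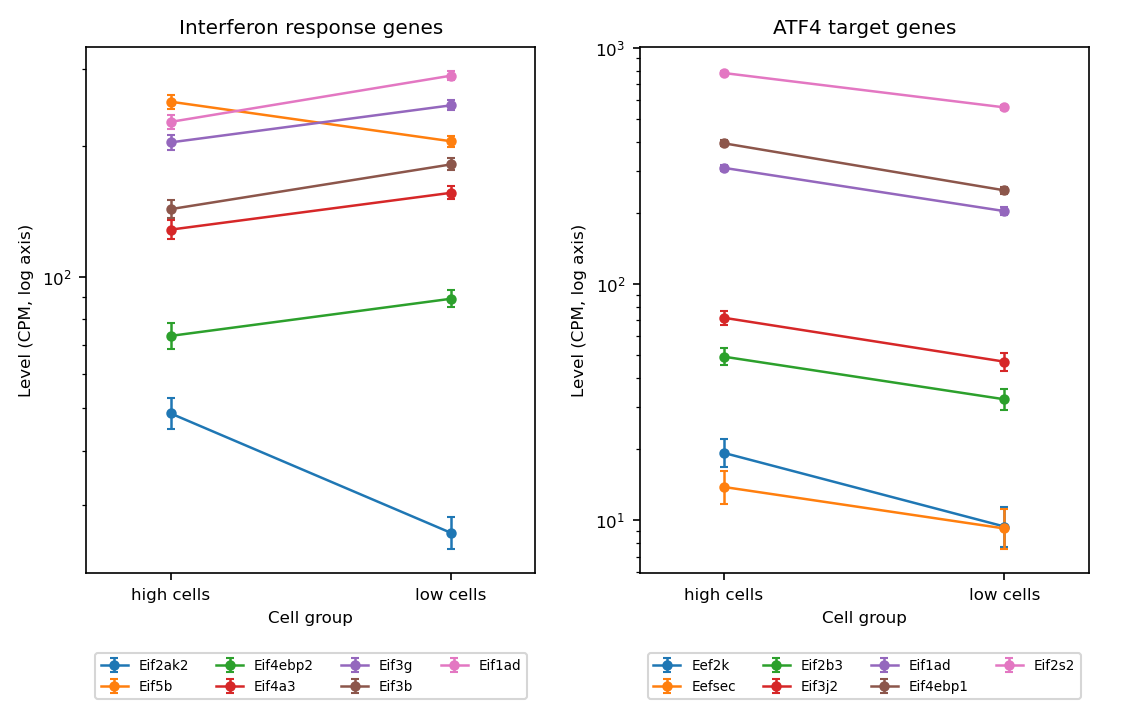
Levels of selected factors, in CPM on log axes with 95% Poisson intervals, in cells high and low in interferon response genes (left panel) and in ATF4 target genes (right panel). Eif2ak2 is 48.7 CPM in interferon-high cells and 25.9 CPM in cells with none, and Eef2k and Eif4ebp1 are higher in ATF4-target-high cells.

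Other genes of the translation pathway outside the Eif and Eef names, 27 tested of a list of 30, had medians of the same sign as the factors in each comparison. Their median log2 ratio was 0.17 with Myc, 0.37 with G2/M genes, -0.20 with mature macrophage genes, -0.06 with interferon genes and 0.30 with ATF4 targets. Medians of all genes tested, in the same order, were 0.05, 0.24, -0.04, 0.03 and 0.15, so their sign differed only with interferon genes. In the ATF4 comparison 14 of the 27 were higher and 1 lower, against 34.6% of genes tested higher and 9.15% lower. In the mature macrophage comparison 2 were higher and 11 lower, against 20.6% of genes higher and 22.7% lower. Ribosomal protein genes did not share the positive medians, as their medians lay between -0.14 and -0.05 in the 5 comparisons.

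Cell by cell, counts of initiation factors per 10000 had a median of 83, with 51 and 112 at the 5th and 95th percentiles. Counts of elongation factors had a median of 110, with 70 and 143. Initiation here means every role other than elongation and its modifiers. It thus includes the eIF2 kinases, the eIF4E inhibitors and Eif4a3. Across the 4312 thinned cells, which share 1 matrix and a fixed depth, initiation counts had a Pearson correlation of 0.70 with 10 nucleolar genes and -0.37 with ribosomal protein genes. Among the 1255 cells low in G2/M genes these were 0.71 and -0.20. Elongation counts had 0.34 with nucleolar genes and 0.01 with ribosomal protein genes, and 0.41 with initiation counts. The classes share the fixed total of 10000 counts, of which ribosomal proteins take the largest part.

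**Figure D5:**
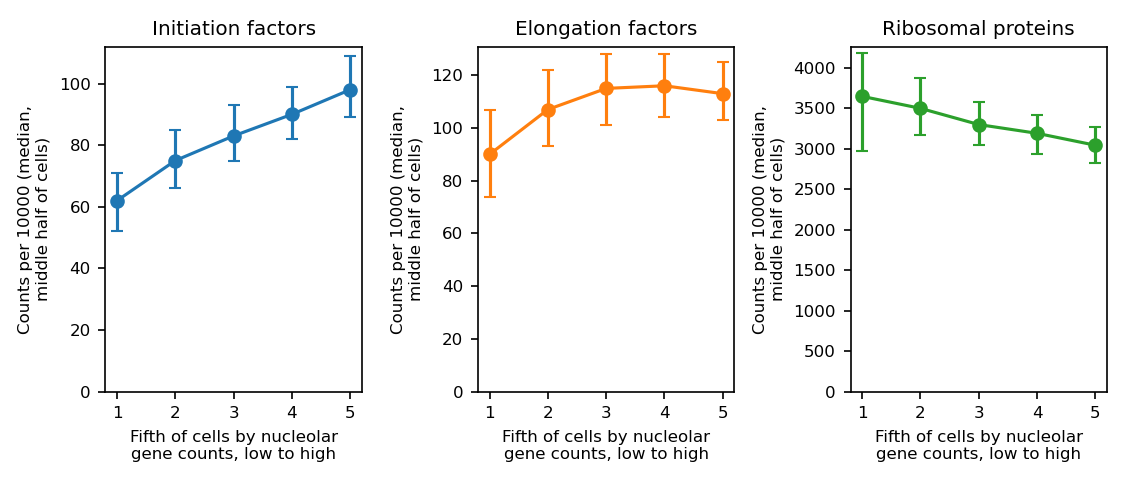
Counts per 10000 of initiation factors, elongation factors and ribosomal proteins in thinned cells, in 5 bins of cells by nucleolar gene counts (medians with interquartile ranges). Initiation factors include the eIF2 kinases and eIF4E inhibitors. Initiation medians climb through 62, 75, 83, 90 and 98, elongation medians level off at 90, 107, 115, 116 and 113, and ribosomal protein medians decline through 3644, 3496, 3296, 3188 and 3041.

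Across 5 bins of 819 to 905 cells by nucleolar counts, the median of initiation factors was 62 in the lowest bin and 98 in the highest. Elongation factors levelled off from the middle bin on, with medians of 115, 116 and 113. The median of ribosomal proteins was 3644 in the lowest bin and 3041 in the highest. Of the 60 single factors, 24 varied more between cells than the median of genes of like mean and 36 did not. The variance over the mean was 4.77 for Eef1a1 against a median of 3.04 for genes of like mean, 2.29 for Eif2s2 against 1.65, 1.98 for Eif5b against 1.29 and 1.78 for Eif3a against 1.24. Eif3h had 1.17 against 1.40 and Eif3i 1.16 against 1.36, below genes of like mean.

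Depth was a further axis along which cells differed. In 1544 cells under 5000 counts the factors took 2.11% of counts, and in 4312 cells of 10000 counts or more 1.96%. Here 61 factors could be compared, of which 6 were higher in shallow cells and 0 lower, against 19.0% of 6656 genes higher and 3.83% lower. Scaled to counts outside ribosomal protein, mitochondrial and rRNA-locus transcripts, 4 of 63 were higher and 1 lower, against 17.4% of genes higher and 7.27% lower. Eefsec had 16.9 CPM in shallow cells and 12.8 CPM in deep cells, Eif4a2 25.02 against 19.3 CPM, and Eif4a3 194 against 154 CPM. Eif4e had 99.5 CPM in shallow cells and 79.5 CPM in deep cells, Eif6 242 against 200.5 CPM, and Eef1a1 5592 against 4571 CPM. Eef2 and Eif5a were nearly equal, with 1286 CPM for Eef2 in shallow cells and 1288 CPM in deep cells, and 1475 against 1485 CPM for Eif5a. Other abundant factors differed more without passing 1.2-fold. In shallow against deep cells, Eef1b2 had 1637 against 1776 CPM and Eif4a1 712 against 607 CPM. Eif4ebp1 had 341 CPM in shallow cells and 333 CPM in deep cells, and Eif2ak2 33.9 against 35.8 CPM. Malat1 had 522 CPM in shallow cells and 195 CPM in deep cells, and its part in these ratios was not tested. The share of factor counts was lowest, 1.77%, in the 895 cells between 5000 and 10000 counts.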

How the data were processed

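The deposited table holds whole-number counts per gene and barcode, not normalized, written by PISA 0.12 per the file headers. The submitters' processing notes also name Cell Ranger and mm10, without a role for either. Not given in the sources used here are aligner settings, annotation, cell calling, strand and whether counts are of unique molecular identifiers. If they are of reads, the intervals are too narrow. The labels' cDNA and oligo libraries cannot be parted by barcode, so 1 sample was described, with no p-value.

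Barcodes under 500 genes or over 15% mitochondrial counts, 86 in all, were left out. Doublets were not called and stayed in. Levels are CPM of summed counts with exact Poisson intervals (95%). For comparisons, cells were thinned to 10000 counts, grouped at or below the 25th and at or above the 75th percentile of a score, and set side by side for genes of at least 10 CPM, with a pseudocount of 1 CPM and a 1.2-fold rule. Calculations used Python 3.11.15, numpy 2.4.6, scipy 1.17.1 and pandas 2.3.3.

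Every factor is given its level. Each comparison names up to 6 factors with the largest absolute log2 ratios, and Eef1a1, Eef2, Eif4e, Eif4ebp1, Eif5a and Eif2ak2. Further factors were named after their values were seen, to describe a role. The factors and lists were chosen with earlier results of these data known. Of the factors, 66 have coordinates in GENCODE M21. Promoter windows are from RefSeq.

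The steps were tested on simulated data from the 20034 genes, in groups of 1000 cells at 10000 counts. Changes of 1.5-fold and 2-fold, log2 0.58 and 1, came back as 0.56 and 0.97 after the shift of unchanged genes was taken off, and 98% and 100% of them passed 1.2-fold. Of 6458 unchanged genes, 3.64% did. All simulated cells of a group shared 1 profile, and the groups were set in advance and not by a score. The main comparisons of the data were made without taking off the shift. These shares therefore do not give the error of the comparisons reported above.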

Additional observations from a re-analysis of the deposited data

How the results depend on the processing

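No paired analysis was possible because the result comes from no test and there is 1 sample. The share of counts taken by the factors was 1.951% without cells under 5000 counts, 1.957% without cells over 60000 counts, 3.23% when scaled to counts outside ribosomal protein, mitochondrial and rRNA-locus transcripts, and 1.966% as a mean over cells. The last 2 settings gave median levels of 212 and 132 CPM. In the Myc comparison, higher factors numbered 3 at 20000 counts per cell, 2 with another random thinning, 2 with a pseudocount of 10 CPM, 22 at 1.1-fold and 0 at 1.5-fold, and 1 was lower at 5000 counts and 1 in cells low in G2/M genes. Eefsec reversed to -0.11 at 5000 counts and to -0.13 with another thinning. For G2/M genes, the median was 0.39 with groups at the 10th and 90th percentile and 0.036 relative to the median of all genes, which left 16 higher and 11 lower. There, 12 were higher at 1.5-fold, 2 lower at 1.1-fold and 1 lower in cells with at most 3 Malat1 counts. For mature macrophage genes, higher factors numbered 0 at 5000 counts, 3 with the wider percentiles, 2 with no minimum level, 3 at 1.1-fold, 0 at 1.5-fold and 5 in cells low in G2/M genes. Lower ones numbered 41 with the wider percentiles (median -0.37), 33 with the other scaling, 40 at 1.1-fold and 0 at 1.5-fold. For interferon genes, 1 was higher at 5000 counts, at 20000 counts, with another thinning, with the other scaling and at 1.5-fold, 4 at 1.1-fold and 6 in cells low in G2/M genes. Lower ones numbered 2 at 5000 counts, 19 with the wider percentiles, 3 with a pseudocount of 10 CPM, 15 with the other scaling, 22 at 1.1-fold, 0 at 1.5-fold and 20 in cells low in G2/M genes. For ATF4 targets, 4 were higher at 1.5-fold and 13 relative to all genes. Lower ones numbered 1 at 20000 counts, 1 with the other scaling, 1 without cells over 60000 counts, 2 at 1.1-fold, 2 relative to all genes, 1 in cells with at most 3 Malat1 counts and 3 in cells low in G2/M genes. The median was 0.43 with the wider percentiles and 0.14 relative to all genes. For depth, 3 were higher with a pseudocount of 10 CPM, 25 at 1.1-fold, 0 at 1.5-fold and 2 relative to all genes, and lower ones numbered 1 with the other scaling and 3 at 1.1-fold. The causes were not tested, apart from fold limits, which change the counts by construction. The share of all genes called at the same setting is not given beside these counts. They therefore show only how the counts depend on the setting and are no result about the factors. Of 57 settings for the medians of the factors, 52 were counted as unchanged and 5 as moved. The main medians did not reach 1.2-fold for Myc (0.07), mature macrophage genes (-0.22), interferon genes (-0.08) and depth (0.10). A change of sign was not called for medians that small, so these counts do not show that their signs held. The restrictions by Malat1 and by G2/M genes and the values relative to all genes were chosen after seeing the data.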
